A study of Mus musculus with 16 samples.

Results

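Retinoids were followed here through 9 genes of vitamin A metabolism and signalling, namely Rpe65, Aldh1a1, Aldh1a2, Aldh1a3, Rara, Rarb, Rarg, Rxra and Rxrb. They were taken by symbol from the 24056 gene rows shared by all 16 expression tables, and each of the 9 had a row in every table. The tables came from RNA-seq of whole striatum and whole hippocampus of 4 adult mice of both sexes at postnatal day 63, numbered 970, 971, 974 and 977. Each animal gave 4 libraries. Str.IP and Hip.IP are RNA that came down with hemagglutinin (HA) tagged ribosomes from striatum and hippocampus. Str.input and Hip.input are RNA of the cleared lysate from which each precipitation was made, and serve as the whole-tissue controls. Every animal, and so every group of 4 libraries, carried the same alleles, Aldh1l1-creERT2 (hemizygous) and Ribotag (heterozygous), on an FVB background that had been crossed back to C57/Bl6N for 3 generations. Ribotag places an HA tag on the ribosomal protein Rpl22 in cells where Cre has acted, and here the promoter of the astrocyte gene Aldh1l1 drives Cre, so the IP reports on cells in which that promoter was active. Neither the sex of each animal nor a tamoxifen schedule was given in the sources used here.

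Vitamin A (retinol) is carried into cells, oxidised to retinal by alcohol and short-chain dehydrogenases, and oxidised further to retinoic acid by the retinaldehyde dehydrogenases Aldh1a1, Aldh1a2 and Aldh1a3. Retinoic acid binds the receptors Rara, Rarb and Rarg, which sit on DNA as pairs with a retinoid X receptor (Rxra, Rxrb or Rxrg) and switch on target genes, among them Rarb itself. Rpe65 is the isomerase that turns all-trans retinyl ester into 11-cis retinol in the retinal pigment epithelium, the tissue it is best known for. In the adult brain retinoic acid signalling is best described in striatal projection neurons, in the hippocampus and in the meninges, which hold much of the brain's Aldh1a2.

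Retinoic acid response elements are known as direct repeats of a 6-base half-site. The half-site AGGTCA, its variant AGTTCA and the further variant GGTTCA were searched for. Any pair of them in the same direction spaced by 1, 2 or 5 bases was searched for too. Both strands were read in RefSeq promoter windows of GRCm38.p6. A window runs from 250 bases before an annotated start of a gene to 50 bases after it, and a gene can have several. Windows were found for 8 of the 9 genes, 15 windows in all, and none was matched for Aldh1a3. The 250 bases before 1 start are printed for Rarb, the only gene of the 8 whose windows held such a repeat. They are also printed for Rpe65 and Aldh1a1, the genes with the highest levels in Str.IP. Capitals mark the half-sites. The Rarb stretch is chr14:16575477-16575726 on the minus strand, and the Rpe65 stretch is chr3:159598931-159599180 on the plus strand. The Aldh1a1 stretch is chr19:20601718-20601967 on the plus strand. The Rarb start used, base 16575476, lies inside the gene, whose outer end on the minus strand is base 16819156. The Aldh1a1 start used, base 20601968, also lies inside its gene, which begins at base 20492715. Another Aldh1a1 window, with its start at base 20492583, is not printed and held no half-site.
Rarb: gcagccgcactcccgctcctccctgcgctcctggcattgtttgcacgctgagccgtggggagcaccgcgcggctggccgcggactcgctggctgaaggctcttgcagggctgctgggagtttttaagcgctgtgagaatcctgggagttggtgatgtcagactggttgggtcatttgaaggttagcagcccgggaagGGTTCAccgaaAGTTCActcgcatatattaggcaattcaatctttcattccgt
Rpe65: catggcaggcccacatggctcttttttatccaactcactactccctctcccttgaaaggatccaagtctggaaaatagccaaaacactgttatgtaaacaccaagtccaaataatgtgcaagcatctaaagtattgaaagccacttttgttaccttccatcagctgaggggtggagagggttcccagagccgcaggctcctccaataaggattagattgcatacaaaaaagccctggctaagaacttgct
Aldh1a1: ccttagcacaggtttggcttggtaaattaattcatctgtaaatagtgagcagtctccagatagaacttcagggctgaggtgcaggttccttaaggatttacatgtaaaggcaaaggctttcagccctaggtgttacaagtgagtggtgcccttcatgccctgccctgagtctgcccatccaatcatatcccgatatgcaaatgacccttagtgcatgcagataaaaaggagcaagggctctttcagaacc
In the Rarb stretch GGTTCA lies from base -53 to base -48 and AGTTCA from base -42 to base -37, on the strand of the gene. These positions are counted from the start inside the gene given above. They form a direct repeat spaced by 5 bases, which 20 of all 32851 mouse windows (0.0609%) held. Repeats spaced by 1 base were in 0.1005% of windows and repeats spaced by 2 bases in 0.210%. Single half-sites were common, with AGGTCA in 16.3% of windows, AGTTCA in 14.0% of windows and GGTTCA in 10.4% of windows. At least 1 window each of Rara, Rarg and Rxra held a half-site, while other windows of the same genes held none. The Rpe65 and Aldh1a1 stretches held none of these letters.

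Library depth, estimated from the size of the steps between low FPKM values (fragments per kilobase of transcript, scaled to library size), was 13900000 to 21700000 fragments in Str.IP, 4140000 to 8940000 in Str.input, 18900000 to 22600000 in Hip.IP and 9030000 to 12200000 in Hip.input. The shallowest libraries were the striatal inputs of animals 974 and 971. Astrocyte markers rose in IP, and all 12 passed the test in both regions. Aldh1l1 averaged 103.6 ± 25.3 in Str.IP against 4.41 ± 1.05 in Str.input and 106.4 ± 9.85 in Hip.IP against 4.58 ± 1.34 in Hip.input (scaled FPKM, SD, n = 4 each). Neuronal RNA was not fully removed. The median IP to input ratio of 16 pan-neuronal markers, below called the neuronal ratio, was 11.5% to 23.1% in striatum and 5.65% to 11.6% in hippocampus. It was highest in animal 974 in both regions. It compares IP with input and is not the share of IP RNA that came from neurons. The tagged gene Rpl22 was at 2.79 to 3.25 in Str.IP against 2.42 to 3.53 in Str.input, and at 3.05 to 3.66 in Hip.IP against 3.90 to 4.05 in Hip.input.

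Levels below are scaled FPKM, that is, deposited FPKM divided by a scaling factor per library (0.777 to 1.28). Differences are log2 fold changes of scaled FPKM + 1 from limma with 4 animals per group, and a gene is said to rise or fall where the Benjamini-Hochberg adjusted p over all 13467 genes that reached 1 FPKM in at least 4 libraries was under 0.05. This scale understates the change of genes near or under 1 FPKM. Of the 9 genes, 7 passed this filter, while Aldh1a3 and Rarg did not and take their values from the same fit run on all 20258 genes above 0. In striatum 4 of the 7 (Rpe65, Aldh1a1, Rara and Rxra) rose in IP over input and 1 (Rarb) fell, where 32.1% of all genes tested rose and 33.1% fell. In hippocampus 3 of the 7 (Rpe65, Aldh1a1 and Rxra) rose and none fell, where 28.6% of all genes rose and 37.1% fell. Between the IPs 2 of the 7 (Rpe65 and Rarb) were higher in striatum and none was lower, where 7.24% of all genes were higher and 4.95% lower. Between the inputs 2 (Rpe65 and Rarb) were higher in striatum and 2 (Aldh1a2 and Rara) lower, where 15.4% of all genes were higher and 21.1% lower. The difference of IP over input between the regions, striatum minus hippocampus, was positive for Rara and negative for Rarb, where 8.77% of all genes were positive and 5.37% negative. The shares of called members in the IP over input comparisons are thus read against backgrounds of 65.2% in striatum and 65.7% in hippocampus called in either direction. The scaling matters for these splits. Without it the median of all genes was -0.25 in place of -0.03 in striatum and -0.51 in place of -0.15 in hippocampus, and the calls over all genes were 3148 higher and 5571 lower in place of 4322 and 4454 in striatum, and 2495 higher and 7111 lower in place of 3852 and 4992 in hippocampus. For the regional difference they were 1597 positive and 615 negative without scaling, and 913 and 960 with median-of-ratios scaling, in place of 1181 and 723.

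**Figure D1:**
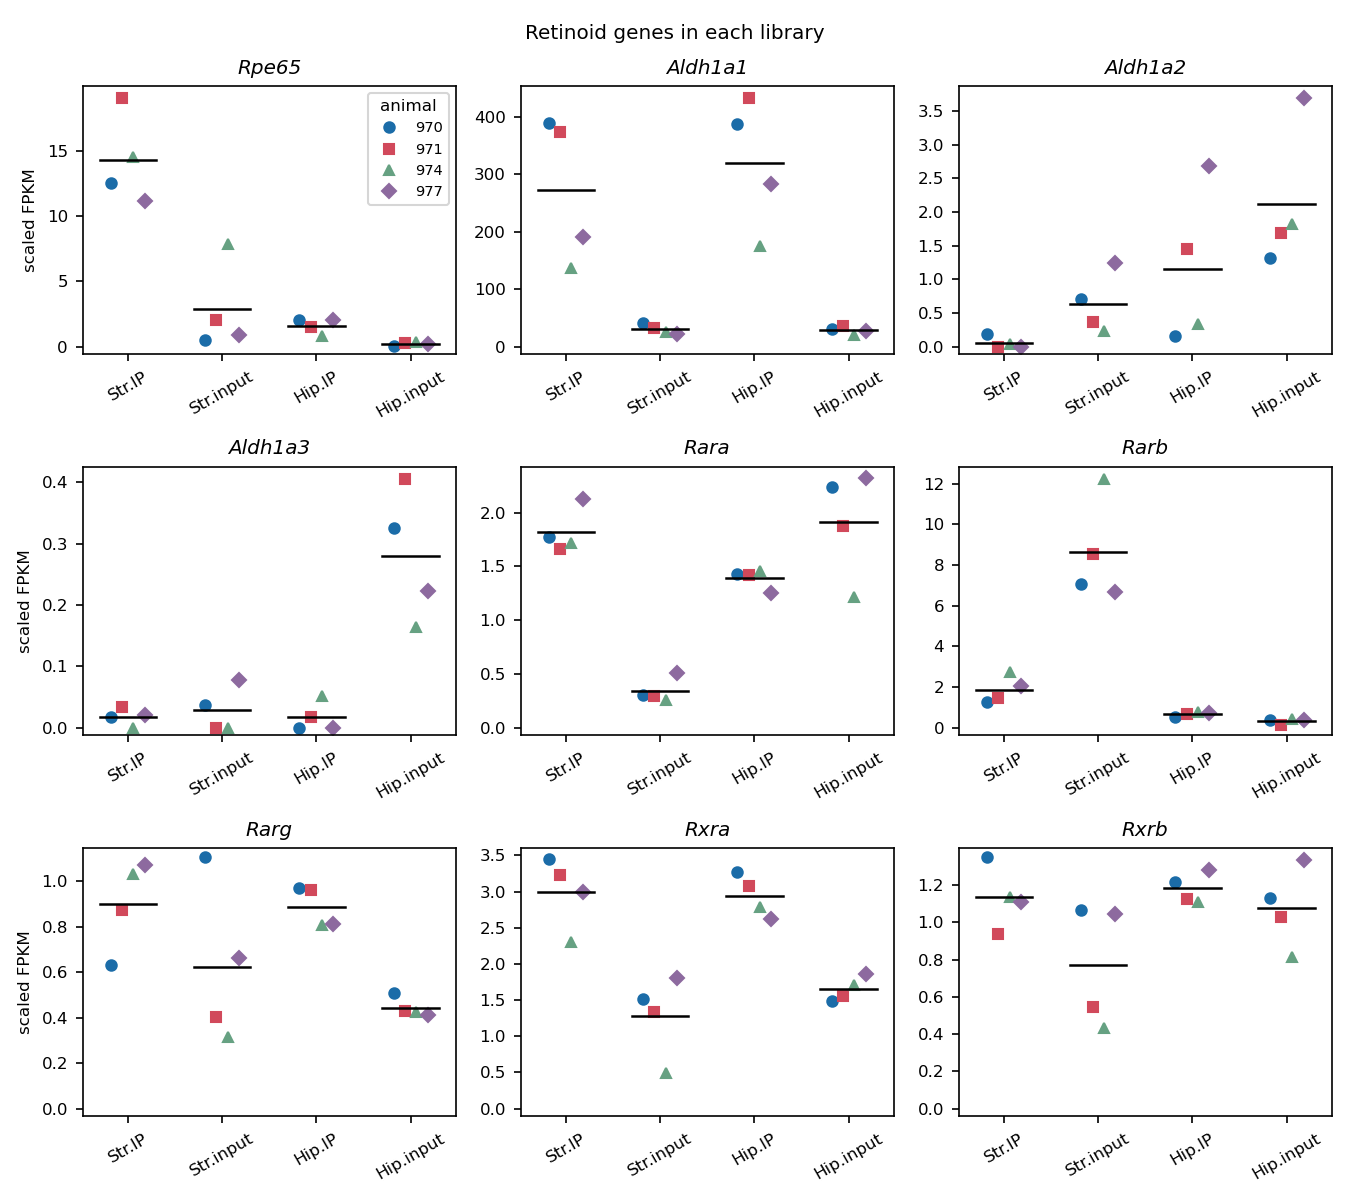
Scaled FPKM (y axis, linear, a separate range per gene) of the 9 genes in Str.IP, Str.input, Hip.IP and Hip.input; each symbol is 1 animal and the black line is the mean of 4 animals. Rpe65 lay at 11.1 to 19.0 in Str.IP and at or under 2.05 in Hip.IP, Aldh1a1 was above 130 in every IP library, and Rarb was highest in Str.input.

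Rpe65, at chr3:159599175-159625321 on the plus strand of GRCm38, was far higher in the striatal than in the hippocampal precipitate. In Str.IP it measured 12.6, 19.0, 14.5 and 11.1 in animals 970, 971, 974 and 977, against 0.537, 2.05, 7.88 and 0.903 in Str.input. In Hip.IP it measured 2.04, 1.49, 0.771 and 2.001, against 0.0463, 0.265, 0.356 and 0.188 in Hip.input. None of these paired groups overlapped, IP was above input in 4 of 4 animals in each region, and striatum was above hippocampus in 4 of 4 animals in IP and in input. The means were 14.3 ± 3.43 in Str.IP and 1.58 ± 0.593 in Hip.IP (SD, n = 4 each), a ratio of 9.08. On the log2 scale Str.IP was above Hip.IP by 2.58 (SE 0.39, limma, adjusted p = 0.000251), with a 95% confidence interval of 1.75 to 3.40. Ranked by mean level among the 13467 genes, Rpe65 stood at place 3152 in Str.IP and at place 10157 in Hip.IP. In bulk RNA such as this, a larger share of cells that express a gene and more RNA per cell cannot be told apart.

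Rpe65 also rose over input, by 2.33 in striatum (SE 0.39, limma, adjusted p = 6.3e-05) and by 1.06 in hippocampus (SE 0.39, adjusted p = 0.0243). The hippocampal rise rests on few reads, as Hip.input held an estimated 1.0 to 7.0 fragments per library against 24.0 to 64.1 in Hip.IP, and Str.IP held 295.3 to 619.9. That call was lost without animal 970, 971 or 977 (limma, adjusted p = 0.0821, 0.0763 and 0.0993), without hippocampal input 970 (0.0585) and without Hip.IP 970 (0.051), and was kept without animal 974. Between the inputs Rpe65 was higher in striatum by 1.30 (adjusted p = 0.0157), with the striatal input of animal 974 standing well above the other 3. Without the striatal inputs 971 and 974 that difference was 0.51 (adjusted p = 0.124), and without animal 971 it was 1.34 (adjusted p = 0.0905). The gain of IP over input was larger in striatum than in hippocampus by 1.27, with a 95% confidence interval of 0.11 to 2.44 and an adjusted p of 0.135 that did not pass. Without striatal inputs 971 and 974 it was 2.07 (adjusted p = 0.00027), and without striatal input 974 alone 1.80 (adjusted p = 0.00138), while without animal 974 it was 1.56 (adjusted p = 0.0114). The same library was also the highest striatal input for Sfrp1, a secreted modulator of Wnt signalling, at 12.04 against 5.53 to 6.32 in the other 3.

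Other genes known from the pigment epithelium were measured beside it. Of 8 genes listed as markers of that tissue, Rlbp1, the retinal-binding protein that Müller glia also make, was at 5.42 to 10.3 in Str.IP against 0.627 to 0.847 in Str.input, and at 10.2 to 12.9 in Hip.IP against 0.734 to 1.57 in Hip.input. Lrat, which makes the retinyl ester that Rpe65 uses, was at 0 to 0.154 in Str.IP and at 0.0217 to 0.125 in Hip.IP, and did not reach the filter. Of the 8 markers 4 passed the filter, and in each region Rpe65 and Rlbp1 rose and 1 fell. Over all genes tested 32.1% rose and 33.1% fell in striatum, and 28.6% rose and 37.1% fell in hippocampus. Mitf, a transcription factor of pigment cells, fell in striatum by 0.48 (limma, adjusted p = 0.00238), and Best1, a chloride channel, fell in hippocampus by 0.92 (adjusted p = 0.000441). Tyr was at 0 throughout Hip.input and Rgr throughout Str.input. Summed over the 8 markers, most of which in Str.IP was Rpe65 itself and Rlbp1, levels ran from 18.8 to 29.1 in Str.IP against 4.22 to 11.3 in Str.input, and from 13.4 to 16.4 in Hip.IP against 3.36 to 4.67 in Hip.input. Across the 16 libraries the genes whose levels followed Rpe65 most closely, among 8902 candidates, were Eogt (Pearson r = 0.95), Sfrp1 (0.94) and Rcbtb1 (0.93). Eogt, which attaches N-acetylglucosamine to secreted proteins, averaged 80.6 in Str.IP, 28.5 in Str.input, 22.2 in Hip.IP and 11.7 in Hip.input. These r values describe 16 libraries that share 4 animals and 4 groups, and carry no test.

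Aldh1a1, at chr19:20492715-20643465 on the plus strand, was the most abundant of the 9 genes in all 4 groups and was enriched in the precipitate of both regions. In Str.IP it measured 388.7, 373.6, 136.4 and 190.5 in animals 970, 971, 974 and 977, against 40.4, 32.6, 25.6 and 21.4 in Str.input. In Hip.IP it measured 387.5, 433.0, 174.5 and 283.1, against 29.7, 36.1, 20.6 and 26.9 in Hip.input. IP and input did not overlap in either region, while the groups of the 2 regions overlapped in IP and in input. It rose by 3.05 in striatum (SE 0.34, limma, adjusted p = 7.48e-07) and by 3.39 in hippocampus (SE 0.34, adjusted p = 1.77e-07), and the ratio of IP to input within an animal was 5.34 to 11.5 in striatum and 8.46 to 13.0 in hippocampus. Its mean ranked at place 101 of 13467 genes in Str.IP and at place 98 in Hip.IP. Str.IP differed from Hip.IP by -0.28, with a 95% confidence interval of -0.998 to 0.43 (adjusted p = 0.688), and Str.input from Hip.input by 0.07, with an interval of -0.65 to 0.78 (adjusted p = 0.896). A difference of up to about 1 log2 unit between the regions was therefore within the interval.

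Aldh1a1 in IP differed between animals alike in both regions. Animal 974 had the lowest Aldh1a1 in Str.IP and in Hip.IP, and animal 977 the next lowest in both. Aldh1l1 was also lowest in animal 974, at 75.5 in Str.IP and 95.7 in Hip.IP. The ratio of Aldh1a1 to Aldh1l1 was 3.06, 3.04, 1.81 and 2.14 in Str.IP of animals 970, 971, 974 and 977, and 3.25, 4.04, 1.82 and 2.73 in Hip.IP. In the IPs of both regions this ratio was lowest in 974 and next lowest in 977. The inputs did not share that order, as the ratio was 8.12, 9.70, 6.87 and 3.83 in Str.input and 4.57, 8.84, 6.01 and 6.29 in Hip.input. Animal 974 also had the highest neuronal ratio in both regions. Input Aldh1a1 times the neuronal ratio came to 5.91 in striatum and 2.39 in hippocampus of animal 974. The part of neuronal RNA in the ratio of Aldh1a1 to Aldh1l1 was not tested. The genes most like Aldh1a1 across the 16 libraries were Trp53inp2, Fam107a and Dtna (r = 0.99 each), of which Fam107a averaged 1069 in Str.IP, 147.1 in Str.input, 1196 in Hip.IP and 172.2 in Hip.input.

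**Figure D2:**
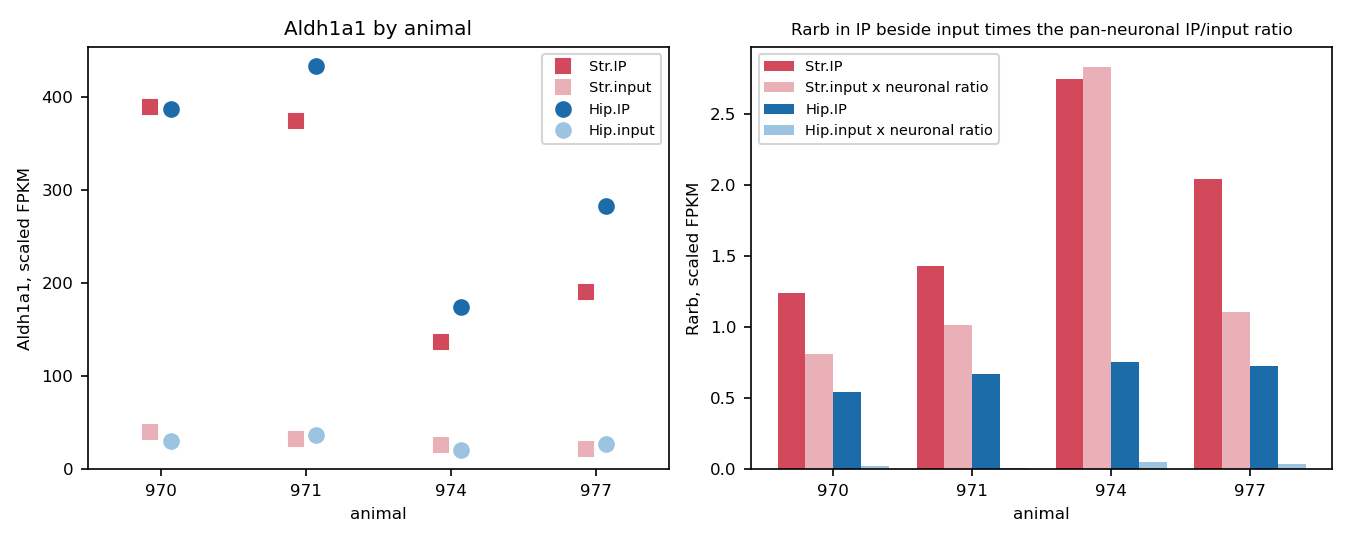
Left, Aldh1a1 in scaled FPKM (y axis, linear from 0) for each animal, squares for striatum and circles for hippocampus, with IP in dark and input in pale colours. Right, Rarb in IP (dark bars) beside the same animal's input level multiplied by its median pan-neuronal IP to input ratio (pale bars); in animal 974 the 2 striatal bars were 2.75 and 2.83, and in hippocampus the pale bars were near 0.

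Aldh1a7, a rodent gene close to Aldh1a1 in sequence, so that the authors' counting may have split reads between them, was far lower than Aldh1a1. It measured 2.35, 3.29, 5.54 and 1.75 in Str.IP against 0.240, 0.159, 0 and 0.0849 in Str.input, and 0.342, 0.217, 1.43 and 0.397 in Hip.IP against 0.0414, 0, 0.272 and 0.436 in Hip.input. It rose by 1.84 in striatum (adjusted p = 6.62e-06), and its hippocampal difference of 0.39 did not pass (adjusted p = 0.181). Str.IP was above Hip.IP by 1.38 (adjusted p = 0.00113), and the regional difference of IP over input was 1.46 (limma, adjusted p = 0.0104). Both IP levels of Aldh1a7 were highest in animal 974, the animal in which Aldh1a1 was lowest.

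Aldh1a2, at chr9:71215789-71296243 on the plus strand, was low, varied several-fold between animals and measured lower in IP than in input in every animal. It measured 0.182, 0, 0.0306 and 0 in Str.IP of animals 970, 971, 974 and 977, against 0.709, 0.362, 0.225 and 1.24 in Str.input. It measured 0.156, 1.46, 0.339 and 2.68 in Hip.IP, against 1.32, 1.69, 1.82 and 3.69 in Hip.input. IP was below input in 4 of 4 animals in each region, without overlap in striatum. The differences were -0.60 in striatum (95% confidence interval -1.26 to 0.07, adjusted p = 0.105) and -0.64 in hippocampus (-1.30 to 0.03, adjusted p = 0.084), and neither passed. With the animal as a block, which the shared animals allow, the hippocampal difference passed (limma, adjusted p = 0.0392), as did a lower level in Str.IP than in Hip.IP (-0.88, adjusted p = 0.0335, against 0.0832 without the block). The hippocampal difference also passed without animal 977 (adjusted p = 0.0233) or its Hip.IP library (0.0129), and the lower level in Str.IP without Hip.IP 970 (0.0272) or 974 (0.0443). Str.input was below Hip.input by 0.92 (limma, adjusted p = 0.0306). This call was lost without striatal input 971 or 974, without hippocampal input 977 or without animal 971 or 974 (adjusted p = 0.0808 to 0.168). It was also lost without both striatal inputs 971 and 974 (limma, adjusted p = 0.277), and with input RNA times the neuronal ratio subtracted from the IPs (0.0553). That subtraction altered only the IP libraries, so the difference between the inputs moved through the scaling and spread of the shared fit. With a pseudocount of 0.1 in place of 1 Str.IP was below Str.input by 2.20 (adjusted p = 0.00962) and below Hip.IP by 2.59 (0.0168), while the lower level in Str.input than in Hip.input did not pass (0.0606). Without scaling the hippocampal difference was -0.90 (0.0201).

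Markers of the meninges and their fibroblasts were measured beside Aldh1a2. Over all genes tested 33.1% fell and 32.1% rose in striatal IP over input, and 37.1% fell and 28.6% rose in hippocampus. Of 7 of these markers tested, 5 fell and 2 rose in striatum, and 5 fell and 1 rose in hippocampus. Summed over 11 such genes, levels were 5.57 to 8.47 in Str.IP against 9.59 to 15.7 in Str.input, and 6.97, 14.3, 9.80 and 15.3 in Hip.IP of animals 970, 971, 974 and 977 against 30.7 to 36.9 in Hip.input, and none of the 11 was at 0 in a whole group. The sum in Str.input was 11.1, 12.5, 15.7 and 9.59 in the same animals. The order of the animals in this sum was that of Aldh1a2 in Hip.IP, the reverse of it in Str.input, and neither in Str.IP and Hip.input. Of all candidates the gene most like Aldh1a2 was Ptgds (r = 0.93), the prostaglandin D synthase of leptomeninges and choroid plexus, at 11.8, 8.86, 15.4 and 18.4 in Str.IP against 134.7, 52.1, 29.8 and 161.1 in Str.input, and 37.1, 100.8, 33.0 and 330.6 in Hip.IP against 161.5, 236.5, 125.8 and 330.5 in Hip.input. Both were highest in animal 977 in Hip.IP and in both inputs. Choroid plexus markers were also uneven, since Ttr, the carrier of thyroxine and of retinol-binding protein, was at 1.63, 2.28, 14.8 and 65.4 in Hip.IP and at or under 1.16 in Str.IP. The part of meningeal or choroid plexus tissue in the Aldh1a2 values was not tested.

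Aldh1a3, at chr7:66390890-66427517 on the minus strand, was close to the limit of detection and was seen mainly in whole hippocampus. It measured 0.325, 0.405, 0.165 and 0.223 in Hip.input, from an estimated 6.0 to 17.0 fragments per library. It was at 0 to 0.0331 in Str.IP against 0 to 0.0769 in Str.input, and at 0 to 0.0520 in Hip.IP, in each library from at most 3.0 fragments. Hip.input stood apart from the other 3 groups, which overlapped one another. In the fit on all 20258 genes it fell by 0.33 in Hip.IP against Hip.input (limma, adjusted p = 3.88e-05) and Str.input was below Hip.input by 0.31 (adjusted p = 0.00021), where 28.2% and 15.2% of all genes in that fit were lower. Str.IP and Str.input differed by -0.01, with a 95% confidence interval of -0.12 to 0.09. The 2 regions' IP over input differences differed by 0.31 (adjusted p = 0.00871), where 6.13% of the genes in that fit were positive, and this call was lost without animal 970 or 971 (adjusted p = 0.118 and 0.109).

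Rara, the retinoic acid receptor alpha gene at chr11:98927818-98974942 on the plus strand, was lower in whole striatum than in whole hippocampus and rose in the striatal precipitate over its input. It measured 1.77, 1.66, 1.72 and 2.13 in Str.IP against 0.304, 0.291, 0.255 and 0.505 in Str.input of animals 970, 971, 974 and 977. It measured 1.43, 1.42, 1.46 and 1.25 in Hip.IP against 2.24, 1.88, 1.22 and 2.32 in Hip.input. Str.input stood below every other library of the series, and was estimated to hold only 4.0 to 23.1 Rara fragments per library. Rara rose by 1.08 in striatal IP over input (SE 0.13, limma, adjusted p = 1.73e-06), and its hippocampal difference of -0.27 (95% confidence interval -0.54 to 0.00) did not pass (adjusted p = 0.077). That hippocampal difference passed without animal 974 (-0.39, adjusted p = 0.0152), without hippocampal input 974 (-0.40, adjusted p = 0.00764) and without scaling (-0.57, adjusted p = 0.00207). The regional difference of IP over input was 1.34 (SE 0.18, adjusted p = 0.000104), positive in each leave-out and each other setting tried, with adjusted p between 3.24e-05 and 0.0105. Between the inputs striatum was lower by 1.11 (adjusted p = 4.63e-06). Str.IP was above Hip.IP in 4 of 4 animals without overlap, by 0.24 with an interval of -0.04 to 0.51 (adjusted p = 0.286). The genes most like Rara across the 16 libraries were Apba2 (r = 0.93), Tecpr1 and Sipa1l2 (0.92 each). Apba2, a neuronal adaptor protein, averaged 13.8 in Str.IP, 3.63 in Str.input, 14.0 in Hip.IP and 15.6 in Hip.input.

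Rarb, the beta receptor gene at chr14:16430839-16819156 on the minus strand, whose promoter repeat is printed above, was highest in whole striatum. It measured 1.24, 1.43, 2.75 and 2.04 in Str.IP against 7.04, 8.52, 12.2 and 6.68 in Str.input. It measured 0.539, 0.671, 0.753 and 0.726 in Hip.IP against 0.348, 0.142, 0.413 and 0.363 in Hip.input. No 2 of the 4 groups overlapped, and their order was Str.input, Str.IP, Hip.IP, Hip.input. Rarb fell by 1.74 in striatal IP against input (SE 0.18, limma, adjusted p = 2.94e-07), and its hippocampal difference of 0.35 (95% confidence interval -0.03 to 0.73) did not pass (adjusted p = 0.097), although IP was above input in 4 of 4 animals. That hippocampal difference passed with the animal as a block (adjusted p = 0.0498), without animal 974 (adjusted p = 0.0447), without striatal IP 970 or 974 (0.047 and 0.0377) and without striatal input 974 (0.0475), and was 0.94 with a pseudocount of 0.1 (0.00958) and 0.53 with one of 0.5 (0.039). Str.input was above Hip.input by 2.84 (adjusted p = 4.16e-09), a ratio of means of 27.2. The regional difference of IP over input was -2.09 (SE 0.25, adjusted p = 3.75e-05).

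Str.IP was also above Hip.IP for Rarb, by 0.75 (SE 0.18, limma, adjusted p = 0.0102). Multiplied by each animal's pan-neuronal IP to input ratio, the Str.input level of Rarb came to 0.808, 1.01, 2.83 and 1.10, beside 1.24, 1.43, 2.75 and 2.04 measured in Str.IP. With the matching amount subtracted from each IP library, and results below 0 set to 0, Str.IP against Hip.IP was -0.21 (limma, adjusted p = 0.619). Rarb in Str.IP of animal 974 was set to 0 in this way. Without animal 977 the unsubtracted difference of 0.72 did not pass (adjusted p = 0.0889). Animal 974 had the highest Rarb and the highest neuronal ratio in Str.IP. The part of neuronal RNA in the Rarb values was not tested. The genes most like Rarb across the 16 libraries were Rasgef1b (r = 0.99), Foxp2 and Isl1 (0.98 each), and Isl1, a transcription factor of striatal neurons, averaged 1.66 in Str.IP and 7.93 in Str.input and was listed at 0 in every hippocampal library. Summed over 10 markers of striatal projection neurons, levels were 216.4 to 393.3 in Str.IP against 2068 to 2460 in Str.input, and 74.8 to 90.2 in Hip.IP against 54.7 to 59.0 in Hip.input. All 10 fell in striatal IP over input, where 33.1% of all genes fell. In hippocampus 6 fell, 1 rose and 3 did not pass, with a median of -0.85, where 37.1% of all genes fell and 28.6% rose. The gene of the 10 that rose in hippocampus was Ppp1r1b, which made up most of the Hip.IP sum at a mean of 72.8. Rarb exons share 1793 bases with Top2b and 227 bases with Gm48162 on the opposite strand, and no strand setting is given in the sources used here, so reads from these stretches cannot be told apart. Top2b, a topoisomerase, was at 33.6 to 51.0 in Str.IP against 17.9 to 36.0 in Str.input, and at 38.2 to 43.2 in Hip.IP against 19.8 to 21.6 in Hip.input.

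Rarg, the gamma receptor gene at chr15:102234938-102257517 on the minus strand, stayed near 1 FPKM or under it in every library. It measured 0.631, 0.872, 1.03 and 1.07 in Str.IP against 1.11, 0.403, 0.313 and 0.660 in Str.input, and 0.970, 0.962, 0.809 and 0.810 in Hip.IP against 0.509, 0.428, 0.427 and 0.412 in Hip.input. Only the hippocampal pair did not overlap. In the fit on all 20258 genes Rarg rose by 0.39 in Hip.IP against Hip.input (limma, adjusted p = 0.0214), where 19.8% of genes rose, and this call was lost without scaling (0.19, adjusted p = 0.326) and without animal 971, animal 977 or hippocampal input 977 (adjusted p = 0.0789, 0.0914 and 0.0506). The striatal difference of 0.25 did not pass (95% confidence interval -0.03 to 0.52), but did without animal 970 (0.46, adjusted p = 0.00795) or without its striatal input (0.38, adjusted p = 0.00929). The regional difference of IP over input was -0.14, with an interval of -0.53 to 0.25, and Str.IP and Hip.IP differed by 0.01, with an interval of -0.27 to 0.28. Without striatal inputs 971 and 974 Str.input was above Hip.input by 0.38 (adjusted p = 0.0426).

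Rxra, the retinoid X receptor alpha gene at chr2:27676440-27762957 on the plus strand, was the most abundant of the 5 receptor genes in the IPs and was enriched in both regions to a modest degree. It measured 3.45, 3.23, 2.30 and 3.00 in Str.IP against 1.52, 1.33, 0.491 and 1.80 in Str.input. It measured 3.28, 3.08, 2.79 and 2.63 in Hip.IP against 1.49, 1.56, 1.70 and 1.86 in Hip.input. IP and input did not overlap in either region and IP was higher in 4 of 4 animals. Rxra rose by 0.84 in striatum (SE 0.16, limma, adjusted p = 0.000319) and by 0.57 in hippocampus (SE 0.16, adjusted p = 0.00602). Without scaling between libraries the hippocampal rise was 0.23 (adjusted p = 0.282). Str.IP and Hip.IP differed by 0.01, with a 95% confidence interval of -0.34 to 0.36, and Str.input and Hip.input by -0.25, with an interval of -0.60 to 0.10. The genes most like it were Scap, a sterol sensor, Psmd13, a proteasome subunit, and Mfap1b (r = 0.98 each).

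Rxrb, at chr17:34031812-34038399 on the plus strand, gave no difference that passed the test. It measured 1.35, 0.939, 1.14 and 1.11 in Str.IP against 1.06, 0.543, 0.434 and 1.04 in Str.input, and 1.22, 1.13, 1.11 and 1.28 in Hip.IP against 1.13, 1.03, 0.815 and 1.34 in Hip.input. Every neighbouring pair in the order of means, Hip.IP, Str.IP, Hip.input and Str.input, overlapped. Its largest difference, 0.29 for striatal IP over input (limma, 95% confidence interval 0.00 to 0.57), had an adjusted p of 0.0712, and with the animal as a block the adjusted p was 0.0425. Without striatal input 970 or 977 it also passed (limma, adjusted p = 0.0322 and 0.0343). It passed too with input RNA times the neuronal ratio subtracted from the IPs (0.0337). Hippocampal IP differed from input by 0.08 (interval -0.20 to 0.36), and turned to -0.18 without scaling. The gene most like it was Rab11fip4 (r = 0.94), at means of 15.7 in Str.IP, 9.67 in Str.input, 16.6 in Hip.IP and 13.6 in Hip.input.

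Rxrg, the X receptor gene known from striatal neurons, was likewise highest in whole striatum. It measured 2.41, 2.53, 6.61 and 5.19 in Str.IP against 12.4, 10.2, 6.41 and 10.3 in Str.input, and 0.123, 0.117, 0.201 and 0.199 in Hip.IP against 0.469, 0.745, 0.588 and 0.598 in Hip.input. In animals 974 and 977, which had the highest neuronal ratios, the Str.IP level was more than that of 970 and 971. In 974 it slightly passed its own input. It fell by 1.12 in striatum (limma, adjusted p = 0.00045), and Str.IP was above Hip.IP by 2.07 (adjusted p = 1.35e-05) and Str.input above Hip.input by 2.73 (adjusted p = 1.14e-07). Its hippocampal difference of -0.46 did not pass (limma, adjusted p = 0.0871). The striatal neuronal ratio was 11.5%, 11.9%, 23.1% and 16.5% in animals 970, 971, 974 and 977. The product of this ratio and Str.input, given above for Rarb, was not computed for Rxrg. The part of neuronal RNA in the Rxrg values was not tested.

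**Figure D3:**
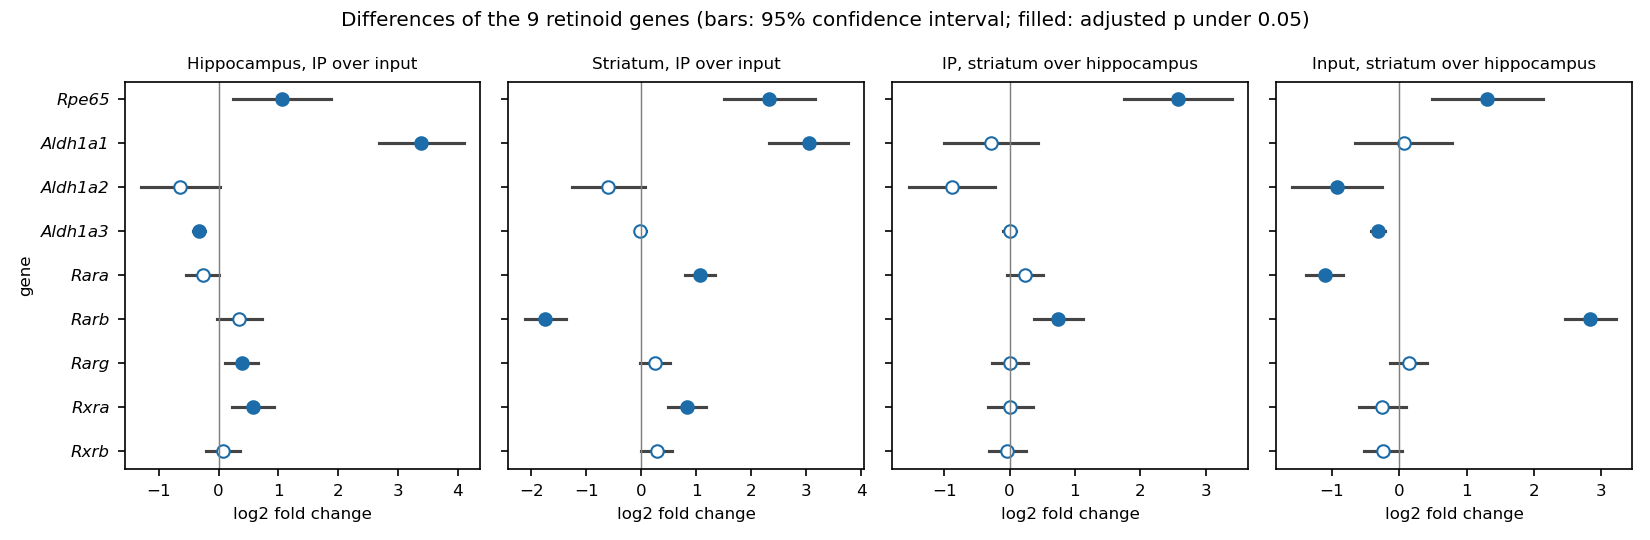
Log2 fold changes (x axis) of the 9 genes with their 95% confidence intervals for IP over input in hippocampus and in striatum, and for striatum over hippocampus in IP and in input; filled points have an adjusted p under 0.05. Aldh1a1 and Rpe65 lie right of 0 in both IP over input panels, and Rarb lies at -1.74 in striatum and at 0.35 in hippocampus.

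The other genes of the pathway were read from 9 lists of 86 genes, of which 84 were in the tables and 61 passed the filter. In striatal IP over input 27 rose, 19 fell and 15 did not pass, against backgrounds of 32.1% and 33.1% of all genes. In hippocampal IP over input 29 rose, 17 fell and 15 did not pass, against 28.6% and 37.1%. Between the IPs 9 were higher in striatum and 6 lower, and 46 did not pass, against 7.24% and 4.95%. The lists were chosen with earlier results on these data known, and their counts are descriptions.

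Of 10 tested retinol and retinal oxidoreductases, 7 rose and 1 fell in each region. Over all genes 32.1% rose and 33.1% fell in striatum, and 28.6% rose and 37.1% fell in hippocampus. The medians of the list were 1.53 in striatum and 1.55 in hippocampus, beside medians of -0.03 and -0.15 over all genes. Rdh5 and Rdh10, which oxidise retinol to retinal, and Rdh11, a related enzyme known mainly as a retinal reductase, rose by 2.13, 0.75 and 1.40 in striatum and by 2.05, 1.32 and 1.45 in hippocampus, and Rdh13 fell by 0.37 and 0.48. Retsat, retinol saturase, was at 16.1 to 25.3 in Str.IP against 4.33 to 6.58 in Str.input and at 25.1 to 32.6 in Hip.IP against 5.76 to 7.55 in Hip.input. Dhrs3, which reduces retinal back to retinol, differed between the regions. It measured 25.2, 18.8, 15.9 and 21.8 in Str.IP against 4.95, 5.62, 3.65 and 5.55 in Str.input, and 48.5, 47.0, 39.5 and 47.3 in Hip.IP against 6.25, 3.33, 4.17 and 5.49 in Hip.input. It rose by 1.84 in striatum and by 3.03 in hippocampus, Str.IP was below Hip.IP by 1.14 (limma, adjusted p = 0.000272), and the regional difference of IP over input was -1.18 (adjusted p = 0.00367). Its level in the 2 inputs differed by 0.05 (adjusted p = 0.855).

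Of 6 tested uptake and binding genes 3 rose and 2 fell in each region. Over all genes 32.1% rose and 33.1% fell in striatum, and 28.6% rose and 37.1% fell in hippocampus. Rlbp1 rose by 2.36 in striatum and by 2.55 in hippocampus, and Fabp5, a fatty acid binding protein that also carries retinoic acid, by 2.24 and 2.14. Rbp4, the secreted retinol carrier, fell by 1.78 and 1.30, and its receptor Stra6 by 0.41 and 0.97. Crabp1 and Crabp2, the cellular retinoic acid binding proteins, did not reach the filter, and Crabp1 was listed at 0 in all 4 Hip.IP libraries and at 1.02 to 6.93 in Str.input. In the ester and carotenoid list Bco2, a carotene-cleaving oxygenase, rose by 2.15 in striatum and by 1.96 in hippocampus, while Lpl, lipoprotein lipase, fell by 3.17 and 3.20. Among the clearing enzymes Cyp26b1, the main retinoic acid hydroxylase of the brain, did not reach the filter, at 0 to 0.0146 in Str.IP against 0 to 0.313 in Str.input and at 0.0495 to 0.0871 in Hip.IP against 0.556 to 1.13 in Hip.input. Cyp1b1, a cytochrome that can also oxidise retinoids, rose in hippocampus by 1.05 and differed by -0.23 in striatum (limma, adjusted p = 0.26). Its difference between the regions was -1.28 (limma, adjusted p = 0.00228). Cyp2s1, the other clearing enzyme tested, fell in both regions. It was at 1.16 to 2.37 in Str.IP against 7.15 to 15.2 in Str.input, and at 0.134 to 0.4945 in Hip.IP against 1.42 to 2.53 in Hip.input.

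Within the aldehyde dehydrogenase family, Aldh2, a mitochondrial enzyme, rose by 3.17 in striatum and by 2.97 in hippocampus, and Aldh1b1 fell by 0.55 and 0.87. Aldh1l2, the mitochondrial relative of Aldh1l1, rose by 1.12 in hippocampus and differed by 0.19 in striatum (adjusted p = 0.16), with a difference between the regions of -0.93 (limma, adjusted p = 0.00109). Aldh1l1 rose by 4.26 and 4.29.

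Of 9 tested receptors that pair with X receptors, 3 rose and 4 fell in striatum, and 4 rose and 3 fell in hippocampus. Over all genes tested 32.1% rose and 33.1% fell in striatum, and 28.6% rose and 37.1% fell in hippocampus. Ppara, a fatty acid sensing receptor, rose by 2.04 in striatum and by 2.14 in hippocampus, at 4.37 to 6.29 in Str.IP and 5.15 to 6.18 in Hip.IP against at most 0.680 in either input. Nr4a1 and Nr4a2, immediate early receptors, fell in both regions, with differences of -1.24 and -1.504 in striatum and of -1.74 and -2.89 in hippocampus. Of 7 tested receptors that bind related sites, Rorb rose by 2.48 and 2.99, and Nr2f1, also known as COUP-TF1, rose by 1.88 and 1.38 while Str.IP was below Hip.IP by 1.30 (limma, adjusted p = 2.71e-06). Of 10 co-regulators 4 rose and 2 fell in each region, beside the shares over all genes given above. Ncoa1, a coactivator, rose by 0.85 in both.

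Of 9 tested genes known elsewhere as retinoic acid targets, 2 rose and 6 fell in striatum, and 3 rose and 5 fell in hippocampus. Over all genes 32.1% rose and 33.1% fell in striatum, and 28.6% rose and 37.1% fell in hippocampus. The medians of the list were -1.79 in striatum and -0.42 in hippocampus, beside -0.03 and -0.15 over all genes. The list holds genes of striatal neurons such as Drd2. Between the IPs 5 were higher in striatum and none was lower, where 7.24% of all genes were higher and 4.95% lower, and between the inputs 5 were higher and none lower, where 15.4% were higher and 21.1% lower. The 5 in IP were Camk4, Drd2, Foxp1, Meis1 and Meis2, of which Drd2, a dopamine receptor of striatal projection neurons, measured 17.7, 22.0, 53.4 and 40.9 in Str.IP against 227.3, 310.7, 323.8 and 179.1 in Str.input. Drd2 in Str.IP was highest in animals 974 and 977, those with the highest neuronal ratios. The part of neuronal RNA in these counts was not tested for the list. Rarres1 and Rarres2, named for their induction by retinoids, rose by 1.75 and 1.74 in striatum and by 1.79 and 2.24 in hippocampus.

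**Figure D4:**
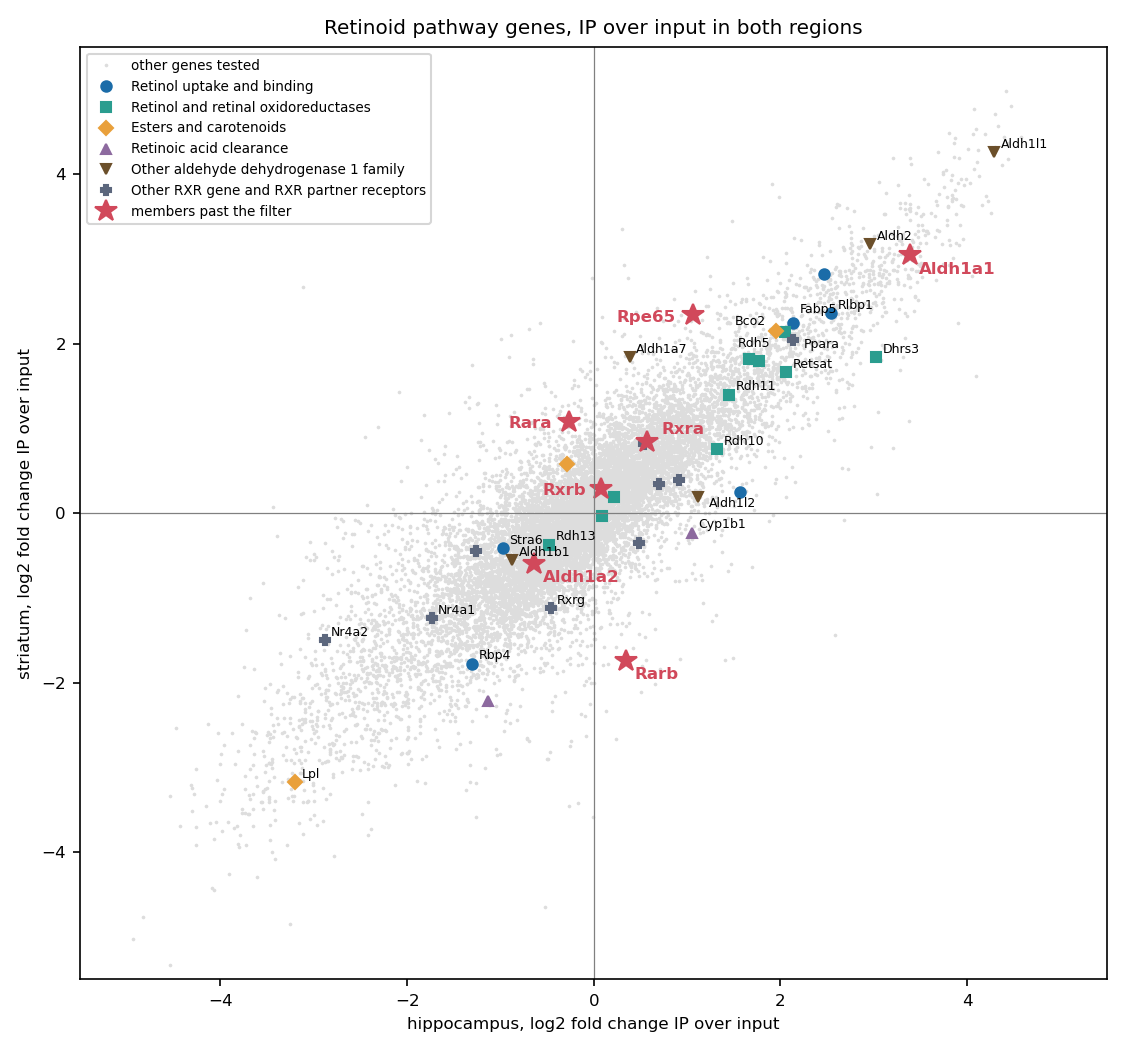
Log2 fold change of IP over input in hippocampus (x axis) and in striatum (y axis) for all 13467 genes tested (grey). Symbols by list mark the tested genes of 6 of the pathway lists, and red stars the 7 genes of the set that passed the filter. Genes of these 6 lists that are drawn and named in the text are labelled, apart from Ttr and Cyp2s1. Aldh1a1 sits at 3.39 and 3.05 near Rlbp1 and Aldh2, Rara sits at -0.27 in hippocampus and 1.08 in striatum, and Rarb at 0.35 in hippocampus and -1.74 in striatum.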

How the data were processed

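RNA was purified from whole-tissue lysate and HA precipitates and made into paired-end libraries with an Ovation RNA-Seq V2 kit, per the labels' protocols. The submitters' processing notes name bcl2fastq 2.17, STAR, HTSeq and the mm10 build, and no versions of the others are given in the sources used here. The authors deposited FPKM per gene, 1 table per library, and that unit is taken from the tables' description and the steps of their values. Of 24060 labels per table, 27 read as dates and were kept as they are, and 2 that occurred more than once were left out. Depth is an estimate from those steps and GENCODE lengths. Of the 1824 to 2326 values per library below 5.5 fragments, 20.9% to 31.1% lay within 0.02 of a whole fragment at those lengths. Fragment numbers of Rpe65, Aldh1a2, Aldh1a3, Rara and Rarg use instead a length fitted to bring their values nearest to whole fragments, so that nearness is not a check. It was 1836 bases against 1934 in GENCODE for Rpe65, 3402 against 4617 for Aldh1a3, 3995 against 4365 for Rara and 5686 against 4261 for Rarg.

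Trimmed-mean factors (30% of log ratios, 5% of levels trimmed) were computed on the deposited FPKM, and log2(FPKM/factor + 1) was fitted with limma 3.58.1 (trend and robust) in R 4.3.3, with the 4 groups in 1 fit of 12 residual degrees of freedom and Benjamini-Hochberg adjustment. A count test was not run, because the values are not counts. The fit was first run on simulated libraries that had no animal effect and were changed only in Str.IP. Those settings differ from the data here, and the outcome is not reported here. Python 3.11.15, pandas 2.3.3 and matplotlib 3.10.9 were used for the rest.

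The animal numbers pair the libraries, since the same animal gave all 4. Same-animal deviations correlated at 0.303 to 0.525 between Str.IP and Hip.IP and at -0.00843 to 0.0848 between Str.IP and Str.input. The fit without the animal block is the one reported, and the block is given where it changed a call. The named genes are the 9 members, the Cre driver and the tagged gene, up to 6 genes per pathway list by smallest p plus relatives of the members, and the 3 most correlated genes per member, of which some are not reported here. The 9 genes and all lists and tests were chosen with earlier results of these data known. Promoter sequences are from RefSeq on GRCm38.p6, and gene positions from GENCODE on GRCm38. The alternatives tried were other pseudocounts, filters, scalings and moderation, the animal block, leave-outs and subtraction from IP of input RNA scaled by the pan-neuronal IP to input ratio.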

Additional observations from a re-analysis of the deposited data

Results flagged for a closer look

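In 3 of 36 gene and group combinations 1 animal stood further from the other 3 than Dixon's 95% criterion for 4 values allows, and chance alone sets apart about 1 in 20 groups. Aldh1a2 in Str.IP was 0.182 scaled FPKM in animal 970, with the other 3 at or under 0.0306. Rara in Hip.IP was 1.25 in animal 977, below 1.42 to 1.46 in the other 3. Rarg in Hip.input was 0.509 in animal 970, above 0.412 to 0.428 in the other 3.

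The gain of IP over input differed between the regions for 3 genes in the limma fit. The difference, striatum minus hippocampus on the log2 scale, was 1.34 for Rara, -2.09 for Rarb and 0.31 for Aldh1a3. The first came with a Str.input level below all other libraries, the second with a Str.input level above all other libraries, and the third with a Hip.input level from at most 17.0 fragments per library.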

How the results depend on the processing

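The 9 genes gave 45 results over 5 comparisons, of which 20 passed the test, and 13 of the 20 kept their direction and their call under each alternative run, which were 20 leave-outs and 10 others (8 others for Aldh1a3 and Rarg, whose fit has no filter to change). A called difference changed sign in 1 case, Rarb in Str.IP against Hip.IP, at -0.21 when input RNA was subtracted in proportion to the neuronal markers in IP. The other sign changes were of differences that passed neither way. For Aldh1a2 the regional difference of IP over input became -0.89 and -0.0915 with pseudocounts of 0.1 and 0.5, -0.0121 with median-of-ratios scaling and -0.26 without striatal inputs 971 and 974. Without those 2 inputs Rxra between the inputs was 0.0134 and the regional difference of Rxrb -0.0300. Without scaling Rxrb was -0.18 for hippocampal IP over input and 0.0355 between the IPs, and Aldh1a1 was -0.00695 between the inputs. With median-of-ratios scaling Rarg between the IPs was -0.0268 and Rxra -0.0338, and with input RNA subtracted Rxrb was 0.0118. Leaving out animals or single libraries gave Aldh1a1 between inputs -0.0812 to 0.22, the Aldh1a2 regional difference -0.285 to 0.33, Aldh1a3 for striatal IP over input -0.0361 to 0.00779 and between IPs -0.00825 to 0.0258, the Rarg regional difference -0.28 to 0.0331 and between IPs -0.0560 to 0.0808, and Rxra between IPs -0.0714 to 0.0951.

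The count of genes called between the IPs was 1641, and 2485 without striatal inputs 971 and 974, 1063 with input RNA subtracted, and 819 to 2057 over the leave-outs (819 without animal 977, 956 without 971, 996 without 970). Over the leave-outs the count between the inputs, 4919, was 2457 to 5958, with 2457 without animal 971. That of the regional difference, 1904, was 583 to 3029, with 583 without animal 971, 720 without 970, 1150 without 977 and 3029 without striatal input 977. With the animal as a replicate block the 5 counts were 9046 in hippocampus, 8979 in striatum, 1934 between IPs, 5328 between inputs and 2151 for the regional difference, and no call among the 9 genes was lost. Where a leave-out removes 1 library the spread is that of the remaining libraries. The causes of these changes were not tested.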
